A study of Mus musculus with 10 samples.

Results

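Histone chaperones escort histones from their synthesis to the DNA and hand them over for the assembly, exchange or storage of nucleosomes. The 10 genes described here were chosen by name, as the rows of 3 nucleoplasmins (Npm1, Npm2, Npm3), the H3-H4 chaperones Asf1a, Asf1b and Nasp, the histone-binding WD-repeat proteins Rbbp4 and Rbbp7, Chaf1a (the large subunit of the replication-coupled assembly factor CAF-1) and Hira (the scaffold of the H3.3 deposition complex), of 21437 genes in all. Expression was measured by RNA-seq in 10 libraries of 5 groups with 2 libraries each, namely MII oocytes, control middle 2-cell embryos, 2-cell embryos after Ago2 knockdown (Ago2 kd), control early 4-cell embryos and 4-cell embryos after Ago2 kd. Control samples are labelled wild type and the others Ago2-kd. In the study's methods the knockdown was made by injecting zygotes with siRNAs against Ago2 together with an antibody to the AGO2 protein, and control zygotes received a scrambled siRNA, so the knockdown was a transient one in embryos that carry no deletion.

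The labels name ICR as the strain of every sample, while the protocol in the labels describes embryos from 7-week-old superovulated F1 females mated with F1 males. For the oocytes the methods give superovulated ICR females, also 7 weeks old. Strain and stage therefore cannot be told apart between oocytes and embryos. Nor can stage be told apart from injection and culture, which the methods describe for zygotes and embryos but not for oocytes. Nothing in the labels says that replicates 1 and 2 came from separate collections, and p-values measure only the spread between these libraries, which may be technical. The question of the stage comparisons was which mRNAs stored in the oocyte decline before and after genome activation, and that of the knockdown comparisons was which of them decline less when Ago2, an effector of small RNA silencing, is depleted. Ago2 itself was not analysed here, so the labels of the knockdown libraries were not checked against its level.

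The oocyte nucleus and the early embryo depend on these proteins in known ways. Npm2 is an oocyte nucleoplasmin that acts in chromatin organisation of the oocyte and in remodelling of sperm chromatin after fertilization, whereas Npm1 is the abundant nucleolar member of the family and Npm3 binds Npm1. Asf1a and Asf1b pass H3-H4 dimers to Hira or to CAF-1, Nasp protects the soluble H3-H4 pool, and Rbbp4 and Rbbp7 are near relatives that are shared by CAF-1, by Hat1 and by several histone deacetylase and Polycomb complexes.

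Values are FPKM, that is fragment numbers divided by exon length and by library size, as the authors deposited them. Levels of different genes can be set side by side within a library only as far as each row holds all fragments of its gene, which was not tested. The FPKM of a library summed to between 178681 and 458874, highest in the oocytes, and the number of reads is unknown. FPKM give an mRNA relative to the other mRNAs of the same library, so fewer cells with an mRNA and less of it per cell cannot be told apart. Changes are differences of log2(FPKM + 1), which understate the change of low genes, tested with limma in 1 fit over all libraries. The 8726 genes that reached 1 FPKM in 2 or more libraries were tested, and a gene is said to have risen or fallen where its Benjamini-Hochberg adjusted p over those genes was under 0.05. Of the 10 genes 8 passed that filter, and Npm3 and Hira did not. Genes with more than 10 FPKM in one replicate were under 0.1 FPKM in the other in 14.6% of cases for 4-cell Ago2 kd replicate 1 and in 1.61% to 5.81% for the other libraries. Gapdh, a glycolytic enzyme used by nearly every cell, reached at most 0.167 FPKM in any of the 10 libraries, and Mcm2, a subunit of the replicative helicase, 0.234 FPKM. Values at or near 0, such as those of Hira, Npm3, Chaf1a, Chaf1b and, in oocytes, Nasp, were therefore not read as absence of the mRNA. For the same reason, levels compared between genes, such as the shares of paralogs, are those of the rows. All 8 oocyte markers had rows and summed to between 4535 and 5062 FPKM in MII oocytes, to between 691 and 1076 in control 2-cell embryos and to between 3.14 and 6.24 in control 4-cell embryos. The 2 cumulus cell markers with rows, Amhr2 and Foxl2, were at 0 in the oocyte and 2-cell libraries and summed to at most 1.75 FPKM in the 4-cell libraries.

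Rbbp7 had the highest FPKM of the 10 genes in MII oocytes and fell at both steps of the control series. It lies on chromosome X (GRCm38, 162760402 to 162779092, plus strand) and measured 5509.6 and 4796 FPKM in MII oocytes, 640.1 and 514 FPKM in control 2-cell embryos and 329.9 and 319 FPKM in control 4-cell embryos. The 3 control groups did not overlap, and the order of the stages was the same in every library. From MII oocytes to 2-cell embryos Rbbp7 fell by 3.16 on the log2 scale (SE 0.20, limma adjusted p = 0.000178), and from 2-cell to 4-cell embryos it fell by 0.82 (SE 0.20, adjusted p = 0.0180). The first of these changes was -1.98 on the scale on which every library sums to the same total (TPM) and passed the test under each of 17 alternative settings and the second under 12 of them. In the second step it was lost without 2-cell control replicate 1 (adjusted p = 0.0991), without 4-cell control replicate 1 (adjusted p = 0.0554) or without 4-cell control replicate 2 (adjusted p = 0.0664). Rbbp7 alone made up 77.6% and 71.2% of the summed FPKM of the 10 genes in MII oocytes, and that sum was 1.58% and 1.47% of all FPKM in MII oocytes, 0.596% and 0.491% in control 2-cell embryos and 0.246% and 0.302% in control 4-cell embryos.

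Rbbp4, its close relative on chromosome 4 (GRCm38, 129307100 to 129335370, minus strand), followed another course. Its level was 45.6 and 44.8 FPKM in MII oocytes, 8.97 and 14.8 FPKM in control 2-cell embryos and 90.7 and 62.0 FPKM in control 4-cell embryos. Both 2-cell values were below both oocyte values, and both 4-cell values were above all others of the control series. The difference of -1.88 (SE 0.73) between 2-cell embryos and oocytes did not pass the test (adjusted p = 0.126), though it did with only the groups compared (adjusted p = 0.0430) and without 4-cell Ago2 kd replicate 1 or 2 (adjusted p = 0.0186 and 0.0190). That difference was smaller on other scales, at -0.77 on the TPM scale (adjusted p = 0.489), -1.19 with median scaling and -0.96 with quantile normalization. The rise of 2.60 (SE 0.73) from 2-cell to 4-cell embryos passed (adjusted p = 0.0299). It did so under 10 of 17 alternative settings, with values from 2.26 to 2.93 when single libraries were left out, and was lost without any 1 of the MII oocyte, 2-cell control or 4-cell control libraries (adjusted p from 0.0586 to 0.134). The 4-cell level exceeded the oocyte level by 0.72 (95% interval -1.02 to 2.46), which did not pass the test (adjusted p = 0.449).

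Within the pair, Rbbp7 took at least 97.2% of the summed FPKM in every oocyte and 2-cell library, 78.4% and 83.7% in control 4-cell embryos and 97.4% and 84.5% in 4-cell embryos after Ago2 kd. The coding sequences of Rbbp4 and Rbbp7 (1275 bases each) were identical at 995 of 1272 aligned bases (78.2%), and the longest run of bases that they share is shown because any longer stretch of coding sequence differs between them. It is 20 bases long and starts at position 364 of Rbbp4 and 361 of Rbbp7, counted from 1 at the start codon.
shared by Rbbp4 and Rbbp7: aaccatgaaggagaagtgaa

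**Figure D1:**
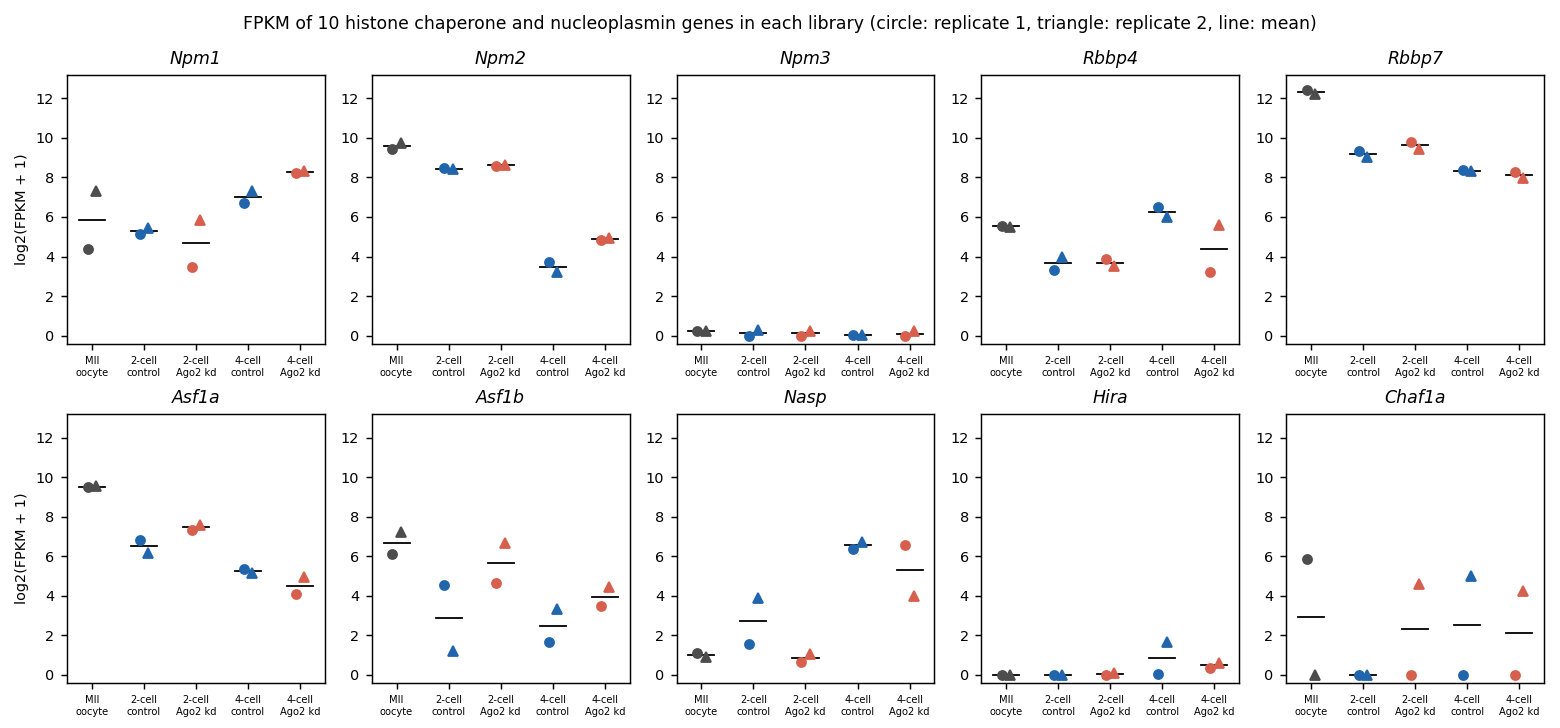
Level of each of the 10 genes, as log2(FPKM + 1), in the 10 libraries, with circles for replicate 1, triangles for replicate 2 and a line at the mean of the pair, grey for MII oocytes, blue for control and red for Ago2 kd embryos. Npm2, Rbbp7 and Asf1a step down from the oocyte to the 4-cell embryo in both replicates, Nasp is highest in 4-cell embryos, and Chaf1a has libraries at 0 in every group.

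The promoters of the Rbbp pair and of Nasp are shown because these 3 genes moved in opposite directions between 2-cell and 4-cell control embryos, Rbbp7 downward and the others upward. Each is the 250 bases before the transcript start, 5′ to 3′ on the strand of the gene, from RefSeq on GRCm38.p6, and capitals mark the letters CCAAT (a box bound by NF-Y) and GGGCGG (a GC box bound by Sp1) on either strand.
Rbbp7, chrX:162760122-162760371, plus strand: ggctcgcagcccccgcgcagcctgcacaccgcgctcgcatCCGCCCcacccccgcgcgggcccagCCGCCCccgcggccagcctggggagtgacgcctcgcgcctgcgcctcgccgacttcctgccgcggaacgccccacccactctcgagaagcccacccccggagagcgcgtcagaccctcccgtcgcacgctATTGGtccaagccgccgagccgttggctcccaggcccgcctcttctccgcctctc
Rbbp4, chr4:129335371-129335620, minus strand: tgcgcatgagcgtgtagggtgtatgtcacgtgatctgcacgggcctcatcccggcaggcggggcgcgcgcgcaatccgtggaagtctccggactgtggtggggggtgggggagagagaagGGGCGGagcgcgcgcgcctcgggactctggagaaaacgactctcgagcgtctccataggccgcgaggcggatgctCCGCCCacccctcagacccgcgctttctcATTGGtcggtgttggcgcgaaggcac
Nasp, chr4:116627952-116628201, minus strand: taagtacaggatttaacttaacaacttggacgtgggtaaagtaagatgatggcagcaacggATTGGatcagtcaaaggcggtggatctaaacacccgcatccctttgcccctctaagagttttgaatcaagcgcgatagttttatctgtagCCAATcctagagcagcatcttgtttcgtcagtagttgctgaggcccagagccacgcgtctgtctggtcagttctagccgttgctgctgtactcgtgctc

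Rbbp7 and Rbbp4 held 2 GC boxes and 1 CCAAT box each, and Nasp held 2 CCAAT boxes and no GC box. Promoters of 8 of the 10 genes were found in the RefSeq table, those of Npm1 and Npm2 being the others. CCAAT on either strand occurred in 6 of the 8, against 33.8% of 32851 promoters of the same length, and GGGCGG in 6 of the 8, against 32.7%. CACGTG (an E-box, the same on both strands) occurred in Rbbp4 and Chaf1a, against 6.02% of all promoters, and CAGGTG (another E-box) and AANATGG (a YY1 motif) only in that of Asf1a among the 8, against 17.2% and 12.4%. The E2F letters TTTGGCGC or TTTCCCGC were in none of the 8 windows, against 1.30% of all promoters. The TATA box, searched as TATAAA, was in none of the 8 and in 12.4% of all promoters, and the NOBOX letters TAATTG were in none and in 7.17%. The OBOX letters GGATTA were in none of the 8 and in 6.25% of all promoters, and the Nr5a2 letters AAGGTCA were in none and in 4.08%. Base composition ranged from 48.4% G or C in Nasp to 76.4% in Rbbp7, against a median of 52.4%. Whether any of these letters bears on the course of the genes was not tested. Of the 8 windows 4 lay partly or wholly in exons of GENCODE transcripts, by 250 bases for Hira, 204 for Asf1a, 187 for Asf1b and 112 for Npm3, and these 4 were among the 6 with a GC box.

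Npm2 (chromosome 14, 70647302 to 70659244, minus strand) measured 685 and 843 FPKM in MII oocytes, 350.1 and 341 FPKM in control 2-cell embryos and 12.4 and 8.41 FPKM in control 4-cell embryos. The 3 groups did not overlap. Its fall between 2-cell and 4-cell embryos was 4.95 on the log2 scale (SE 0.26, adjusted p = 5.56e-05), the largest fall among the 8 genes tested at that step, and it passed the test under all 17 alternative settings. The earlier fall of 1.14 (SE 0.26, adjusted p = 0.0229) depended on the scale of the libraries. FPKM of oocyte libraries summed to 450124 and 458874 against 196312 and 203645 in control 2-cell libraries, and on the TPM scale Npm2 stood at 1523 and 1837 in oocytes and 1783 and 1675 in 2-cell embryos, a difference of 0.05 (adjusted p = 0.981). Quantile normalization gave 0.08, and scaling to the same median gave -0.42 (adjusted p = 0.336). The median of all genes tested was -0.06 on the FPKM scale and 0.38 on the TPM scale, and Npm2 lay below it on both. Without MII oocyte replicate 1 or 2, or 2-cell control replicate 1 or 2, the fall on the FPKM scale was lost as well (adjusted p = 0.0578, 0.113, 0.0797 and 0.0974).

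Asf1a (chromosome 10, 53596757 to 53609225, plus strand) had levels near those of Npm2 in oocytes and fell at both steps. It measured 712 and 744 FPKM in MII oocytes, 113 and 71.5 FPKM in control 2-cell embryos and 39.7 and 34.5 FPKM in control 4-cell embryos, with no overlap between groups. The first step was a fall by 3.0 (SE 0.37, adjusted p = 0.00205), which was -1.83 on the TPM scale and passed the test under all 17 alternatives. The second was a fall by 1.26 (SE 0.37, adjusted p = 0.0338), which was -1.63 on the TPM scale (adjusted p = 0.00602) and passed under 9 of 17 alternatives. Without MII oocyte replicate 1 or 2, 2-cell control replicate 1, or 4-cell control replicate 1 or 2, the second fall no longer passed (adjusted p from 0.0605 to 0.162). On the minus strand Mcm9 overlaps 1748 of the 3638 exonic bases of Asf1a, and whether the counting used strand is not given in the sources used here.

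Asf1b, the paralog on chromosome 8 (83955507 to 83970197, plus strand), was lower and varied more between replicates. It measured 68.4 and 148 FPKM in MII oocytes, 22.1 and 1.31 FPKM in control 2-cell embryos and 2.14 and 9.12 FPKM in control 4-cell embryos. Both embryo stages were below the oocytes, while the ranges of the 2 embryo stages overlapped. The difference of -3.80 (SE 1.24) at the first step did not pass the test (adjusted p = 0.0752), and from oocytes to 4-cell embryos Asf1b fell by 4.17 (SE 1.24, adjusted p = 0.0287), though under only 11 of 17 alternatives. On the TPM scale (adjusted p = 0.0713), or without MII oocyte replicate 1 (adjusted p = 0.0769), MII oocyte replicate 2 (adjusted p = 0.146) or 4-cell control replicate 1 (adjusted p = 0.145), it was lost, whereas without 2-cell control replicate 1 the first step passed (-5.46, adjusted p = 0.0310). Asf1a took 91.2% and 83.4% of the FPKM of the pair in MII oocytes, 83.7% and 98.2% in control 2-cell embryos and 94.9% and 79.1% in control 4-cell embryos. The coding sequences were identical at 431 of 604 aligned bases (71.4%), and the longest run of bases they share, shown for the same reason as that of the Rbbp pair, is 20 bases long and starts at position 196 of both.
shared by Asf1a and Asf1b: cctgcaggaaggcatatgtt

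Nasp (chromosome 4, 116601052 to 116627941, minus strand) took the opposite course to the falling genes. It measured 1.12 and 0.907 FPKM in MII oocytes, 2.01 and 13.7 FPKM in control 2-cell embryos and 82.8 and 104 FPKM in control 4-cell embryos. The 4-cell values were above all other control values, and the 2-cell replicates differed widely. The rise of 5.55 (SE 0.99, adjusted p = 0.00357) from oocytes to 4-cell embryos passed the test under all 17 alternatives, and the rise of 3.82 (SE 0.99, adjusted p = 0.0219) from 2-cell to 4-cell embryos under 12 of 17. It was lost without 2-cell control replicate 1 (2.67, adjusted p = 0.111) and without 4-cell control replicate 1 or 2 (adjusted p = 0.0752 and 0.0928). The difference of 1.73 (SE 0.99) between 2-cell embryos and oocytes did not pass (adjusted p = 0.295).

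Npm1 (chromosome 11, 33152287 to 33163206, minus strand) did not pass the test between any control stages in its own row. It measured 19.6 and 158 FPKM in MII oocytes, 33.9 and 43.0 FPKM in control 2-cell embryos and 104 and 159 FPKM in control 4-cell embryos. The oocyte replicates lay on either side of both 2-cell values, and only the 2 embryo stages were apart. The difference from 2-cell to 4-cell embryos was 1.73 (SE 1.07, adjusted p = 0.249), which passed with only the groups compared (adjusted p = 0.0376), and from oocytes to 2-cell embryos it was -0.55 (SE 1.07, adjusted p = 0.831), which turned to 0.63 on the TPM scale and 0.93 without MII oocyte replicate 2.

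The row of Npm1 could not be read alone, because 8 annotated loci carry at least 200 bases that match its coding sequence at 90% identity or more, and 3 of these have rows of their own. Gm14681, a processed pseudogene on chromosome X that matches 417 bases at 97.4% identity, was above Npm1 in every library. It measured 462 and 597 FPKM in MII oocytes, 218 and 203 FPKM in control 2-cell embryos and 1285 and 1309 FPKM in control 4-cell embryos, with no overlap between groups. Gm14681 fell by 1.32 (SE 0.19, adjusted p = 0.00357) from oocytes to 2-cell embryos and rose by 2.62 (SE 0.19, adjusted p = 0.000131) from 2-cell to 4-cell embryos. On the TPM scale the first of these changes was -0.14 (adjusted p = 0.752) and the second 2.28 (adjusted p = 0.000409). Gm15484, a processed pseudogene on chromosome 5 with a match of 876 bases at 92.1% identity, was between 1.87 and 31.9 FPKM, and Gm12583 was at most 0.140 FPKM.

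When the rows of Npm1 and its copies were summed, an alternative chosen after seeing the data in which Npm1 itself supplied 3.86% to 21.1% of the sum, the replicates drew together. The sum was 508 and 787 FPKM in MII oocytes, 258 and 251 FPKM in control 2-cell embryos and 1412 and 1492 FPKM in control 4-cell embryos. It fell by 1.31 (SE 0.25, adjusted p = 0.0121) and then rose by 2.51 (SE 0.25, adjusted p = 0.000525). The fall depended on the scale of the libraries, as that of Npm2 did. On the TPM scale the sum was 1128 and 1714 in MII oocytes, 1314 and 1233 in control 2-cell embryos and 5257 and 6183 in control 4-cell embryos, so the oocyte values lay on either side of the 2-cell values. The first step was then -0.13 (SE 0.26, adjusted p = 0.826) and the second 2.16 (SE 0.26, adjusted p = 0.00102). FPKM of rows of unequal length do not add up to a read count, and how many of the reads in either row came from Npm1 mRNA was not tested.

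The same search found 1 copy of Rbbp7 with a row, Gm6382, a processed pseudogene on chromosome X that matches 939 bases at 97.1% identity. It measured 1598 and 1538 FPKM in MII oocytes, 184 and 178 FPKM in control 2-cell embryos and 102 and 90.9 FPKM in control 4-cell embryos. Rbbp7 was 2.83 to 3.50 times its copy in each of the 10 libraries, and the calls for Rbbp7 were the same in the summed row, which fell by 3.15 and by 0.84. Npm3 (chromosome 19, 45747734 to 45749591, minus strand) was at most 0.199 FPKM in any library, while its processed pseudogene Npm3-ps1, with 524 bases at 99.0% identity, was between 0.262 and 6.22 FPKM. The sum of Npm3 and Npm3-ps1 passed no test between stages, with differences of -0.66 (adjusted p = 0.633) and 0.21 (adjusted p = 0.867).

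**Figure D2:**
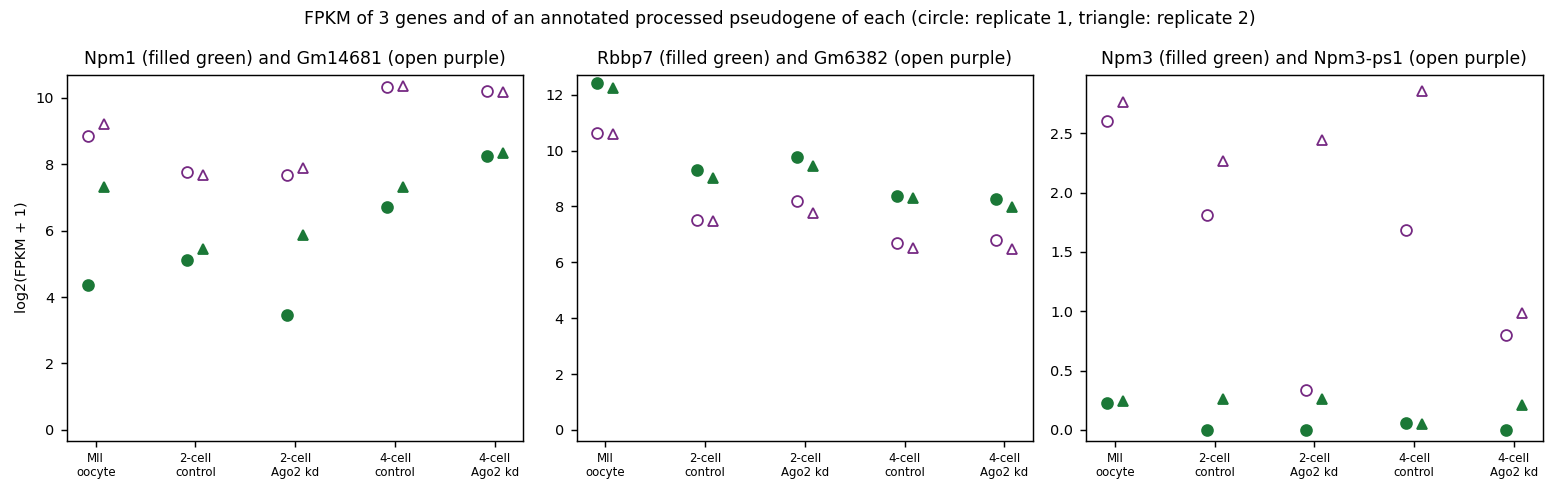
log2(FPKM + 1) in each library of Npm1, Rbbp7 and Npm3 (filled green) and of an annotated processed pseudogene of each (open purple), circles for replicate 1 and triangles for replicate 2, with a separate vertical scale in each panel. Gm14681 lies above Npm1 in every library and its replicates lie closer together, Gm6382 runs below Rbbp7 at a nearly constant distance, and Npm3 stays under its copy.

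Whether a family is read with its copies changed how the nucleoplasmins appeared to divide. By their own rows Npm2 took 97.2% and 84.2% of the FPKM of Npm1, Npm2 and Npm3 in MII oocytes, 91.2% and 88.8% in control 2-cell embryos and 10.6% and 5.03% in control 4-cell embryos. With the copies of Npm1 and Npm3 added, the share of Npm2 was 57.2% and 51.5% in MII oocytes, 57.3% and 57.2% in control 2-cell embryos and 0.869% and 0.558% in control 4-cell embryos. Npm2 gave way to Npm1 and its copies in 4-cell embryos in both readings, and the share in oocytes and 2-cell embryos depended on the copies.

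**Figure D3:**
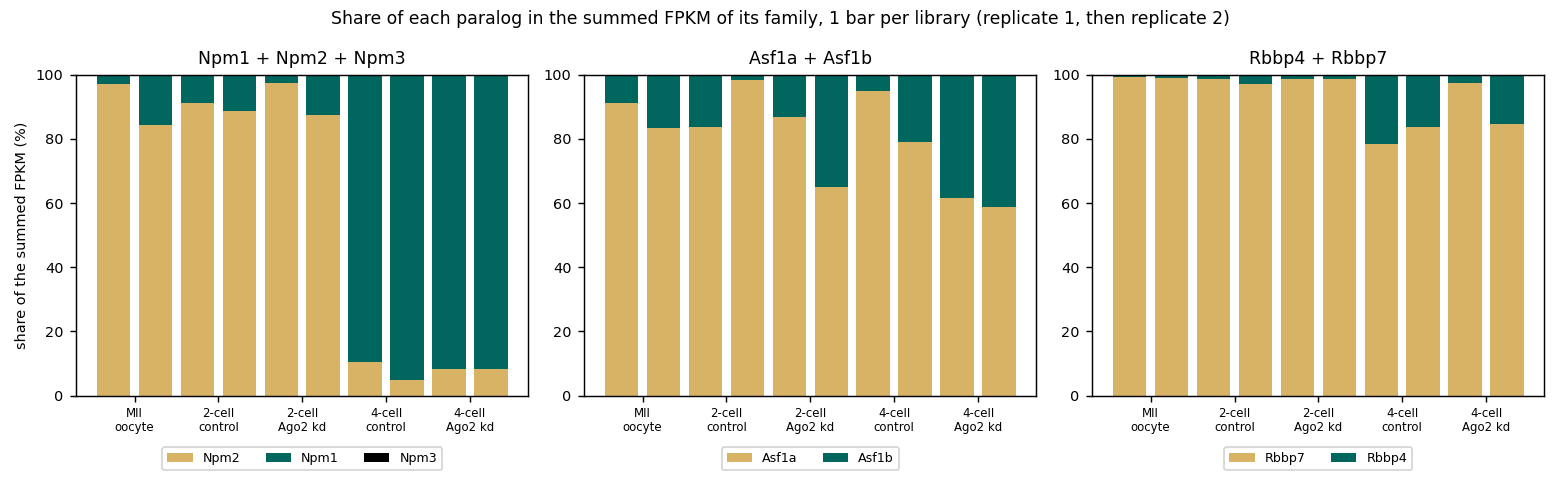
Share (%) of each paralog in the summed FPKM of its family, with 1 bar for each library in the order replicate 1, replicate 2, for the nucleoplasmins, the Asf1 pair and the Rbbp pair, without pseudogene rows. Npm2 (tan) makes up most of the nucleoplasmin FPKM up to the 2-cell stage and Npm1 (green) from the 4-cell stage, while Asf1a and Rbbp7 (tan) keep the larger share of their pair in every library.

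Chaf1a (chromosome 17, 56040439 to 56072289, plus strand) and Hira (chromosome 16, 18877037 to 18970309, plus strand) gave no reading of the stages. Chaf1a was 57.7 FPKM in MII oocyte replicate 1 and 0 in replicate 2, 0 in both control 2-cell libraries, and 0 and 31.6 FPKM in control 4-cell embryos. It was listed at 0 in 6 of the 10 libraries and above 18 FPKM in the others, and no group had both of its libraries above 0. Ubxn6, on the minus strand, overlaps 4648 of its 8854 exonic bases. Hira was at 0 in the oocyte and control 2-cell libraries, 0.0363 and 2.14 FPKM in control 4-cell embryos and at most 0.531 FPKM after Ago2 kd. Gm28539, a locus on the same strand with no row, shares 2778 of the 6215 exonic bases of Hira.

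Between MII oocytes and control 2-cell embryos 3 of the 8 genes tested fell (Rbbp7, Asf1a and Npm2) and none rose, where 14.2% of all genes tested fell and 6.54% rose (20.8% in either direction). At an unadjusted p under 0.05 the count was 5 of 8, beside 32.7% of all genes, and it was again 5 of 8 in each of the next 2 comparisons, beside 46.9% and 54.7%. Between 2-cell and 4-cell control embryos 3 fell (Npm2, Asf1a and Rbbp7) and 2 rose (Nasp and Rbbp4), where 17.5% of all genes fell and 21.1% rose (38.6%). From MII oocytes to 4-cell embryos 4 fell (Npm2, Asf1a, Asf1b and Rbbp7) and 1 rose (Nasp), beside 26.3% and 22.0% of all genes (48.4%). In each of the 3 comparisons the groups did not overlap for 6 of the 8 genes, where 62.0%, 68.6% and 76.2% of all genes tested did not overlap. The median changes of the 8 genes were -2.41, 0.68 and -2.20, against -0.06, 0.24 and 0.00 over all genes tested. By the study's thresholds for maternal mRNA (a mean above 2 FPKM in MII oocytes and steps of log2 mean FPKM), Npm2 and Asf1a were in the class that declines at both steps and Rbbp7 and Asf1b in the class that declines before the 2-cell stage, while Npm1, Rbbp4 and Chaf1a were maternal but in none of the declining classes. The classes of Npm2 and Rbbp7 depended on the scale. The first step of Npm2 was 0.05 on the TPM scale and 0.08 with quantile normalization. The second step of Rbbp7 was -0.83 by log2 mean FPKM, short of the decline by 1 that the study's classes ask for. On the TPM scale it was -1.17, which would put Rbbp7 in the class that declines at both steps. Chaf1a counted as maternal through 1 oocyte library (57.7 FPKM), the other being at 0.

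After Ago2 kd at the 2-cell stage no gene of the 8 passed the test, where 0.550% of all genes tested did (0.332% higher and 0.218% lower). Asf1a measured 161 and 190.2 FPKM after Ago2 kd against 113 and 71.5 FPKM in controls, with both knockdown libraries above both controls, a difference of 0.95 (SE 0.37, unadjusted p = 0.0373, limma adjusted p = 0.763). It was the only 1 of the 8 with an unadjusted p under 0.05, beside 5.96% of all genes. Rbbp7 was 872 and 703 FPKM against 640.1 and 514 FPKM, also without overlap, a difference of 0.45 (SE 0.20, adjusted p = 0.925). Asf1b was 24.5 and 102 FPKM against 22.1 and 1.31 FPKM, and the interval of its difference ran from -0.13 to 5.75.

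The other genes did not pass the test at this stage either. Npm2 was 385 and 399 FPKM after Ago2 kd, slightly above the 350.1 and 341 FPKM of the controls, and its difference of 0.18 had a 95% interval from -0.44 to 0.80. Nasp was 0.552 and 1.09 FPKM against 2.01 and 13.7 FPKM, a difference of -1.89 (95% interval -4.23 to 0.46). Rbbp4 was 13.5 and 10.3 FPKM against 8.97 and 14.8 FPKM, and Npm1 was 9.95 and 57.4 FPKM against 33.9 and 43.0 FPKM, both with overlap. The sum of Npm1 and its copies was 217 and 299 FPKM after Ago2 kd against 258 and 251 FPKM in controls. Groups did not overlap for 5 of the 8 genes, where 29.1% of all genes tested did not. The median difference of the 8 genes was 0.32, against 0.00 over all genes. The 4 rows of 2-cell markers summed to between 321 and 453 FPKM after Ago2 kd and to between 578 and 659 FPKM in controls, and the oocyte markers to between 666 and 701 FPKM against 691 to 1076 FPKM. The part of these differences in the values of the 10 genes was not tested.

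At the 4-cell stage Npm2 was higher after Ago2 kd, and it was the only one of the 8 genes to pass the test, where 1.23% of all genes tested rose and 2.77% fell (4.00% in either direction). It measured 27.5 and 29.5 FPKM after Ago2 kd against 12.4 and 8.41 FPKM in controls, with both knockdown libraries above both controls. The rise was 1.39 (SE 0.26, 95% interval 0.78 to 2.01, adjusted p = 0.0351). Even so, Npm2 after Ago2 kd was lower by 3.56 than in control 2-cell embryos (adjusted p = 0.000202). The sum of the 8 oocyte markers was 7.73 and 31.6 FPKM at its lowest and highest after Ago2 kd and 3.14 and 6.24 FPKM in controls, and that of the 2-cell markers was 25.1 to 28.9 FPKM against 2.47 to 7.21 FPKM. The part of these markers' differences in the value of Npm2 was not tested.

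The rise of Npm2 was 1.35 on the TPM scale (adjusted p = 0.0448) and between 1.14 and 1.65 when each library was left out, but it passed under only 5 of 17 alternatives. With the model restricted to the 2 groups its adjusted p was 0.335. Leaving out any library other than 4-cell control replicate 1 also took its adjusted p above 0.05 (adjusted p from 0.0578 to 0.0732, with 0.0594 without 4-cell Ago2 kd replicate 1, the library that stood apart). The difference between the effects at the 4-cell and 2-cell stages was 1.21 for Npm2 (SE 0.37, unadjusted p = 0.0136), which did not pass after adjustment (adjusted p = 0.203).

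Npm1 lay higher after Ago2 kd in its own row, with 303 and 319 FPKM against 104 and 159 FPKM in controls, and the groups did not overlap. The difference of 1.27 (SE 1.07) did not pass the test (adjusted p = 0.677). Gm14681 was 1169 and 1166 FPKM against 1285 and 1309 FPKM, and the sum of Npm1 and its copies was 1493 and 1512 FPKM against 1412 and 1492 FPKM, a difference of 0.05 (SE 0.25). The higher level in the Npm1 row was not seen in the summed rows. Npm1 supplied only 7.39% and 10.6% of the sum in controls and 20.3% and 21.1% after Ago2 kd. The sum could therefore hardly show a change of that row alone, and nothing is concluded from it. Npm2 and Npm1 together with Npm3 reached 330.1 and 349 FPKM after Ago2 kd and 117 and 167 FPKM in controls, and the share of Npm2 was 8.32% and 8.46% against 10.6% and 5.03%.

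Rbbp4 depended on which knockdown library was used. It measured 8.33 and 46.5 FPKM after Ago2 kd against 90.7 and 62.0 FPKM in controls, with both knockdown libraries lower. The difference of -1.85 (SE 0.73, unadjusted p = 0.0399) did not pass the test (adjusted p = 0.293). Without 4-cell Ago2 kd replicate 2 it was -3.03 and passed (adjusted p = 0.0150), and without 4-cell Ago2 kd replicate 1 it was -0.68 (adjusted p = 0.513). The first of these settings leaves replicate 1 alone and assumes that it varies like the other groups. That library stood apart, with 14.6% of the genes above 10 FPKM in replicate 2 under 0.1 FPKM in it. Nasp was 94.6 and 15.0 FPKM against 82.8 and 104 FPKM, a difference of -1.26 (SE 0.99, adjusted p = 0.642) that became 0.03 without 4-cell Ago2 kd replicate 2. So the low value came from replicate 1 for Rbbp4 and from replicate 2 for Nasp.

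The remaining genes were close to their controls or spread widely. Rbbp7 was 309 and 253 FPKM against 329.9 and 319 FPKM, a difference of -0.21 with a 95% interval from -0.69 to 0.27. Asf1a was 16.1 and 29.6 FPKM against 39.7 and 34.5 FPKM, below both controls, a difference of -0.73 (SE 0.37, adjusted p = 0.421). Asf1b was 10.1 and 20.8 FPKM against 2.14 and 9.12 FPKM, above both controls, a difference of 1.47 (SE 1.24, adjusted p = 0.677). The share of Asf1a in its pair was 61.4% and 58.7% after Ago2 kd, below both control values. Chaf1a was 0 and 18.1 FPKM against 0 and 31.6 FPKM. Groups did not overlap for 6 of the 8 genes, where 37.0% of all genes tested did not, 2 of the 8 had an unadjusted p under 0.05, where 15.4% of all genes did, and the median difference of the 8 was -0.30 against 0.00.

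For the difference between the Ago2 kd effects at the 2 stages none of the 8 genes passed the test, where 2.28% of all genes tested did (0.642% higher and 1.64% lower), and 2 had an unadjusted p under 0.05 beside 13.4% of all genes. These were Npm2 and Asf1a, the latter of which lay above its controls at the 2-cell stage and below them at the 4-cell stage, a difference of -1.68 (SE 0.52, unadjusted p = 0.0149, adjusted p = 0.212). Rbbp4 passed when 4-cell Ago2 kd replicate 2 was left out (-3.06, adjusted p = 0.0438), again with replicate 1 as the lone library of its group. The knockdown comparisons share their control libraries with the stage comparisons, so the values of the 2 kinds of comparison are not independent.

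**Figure D4:**
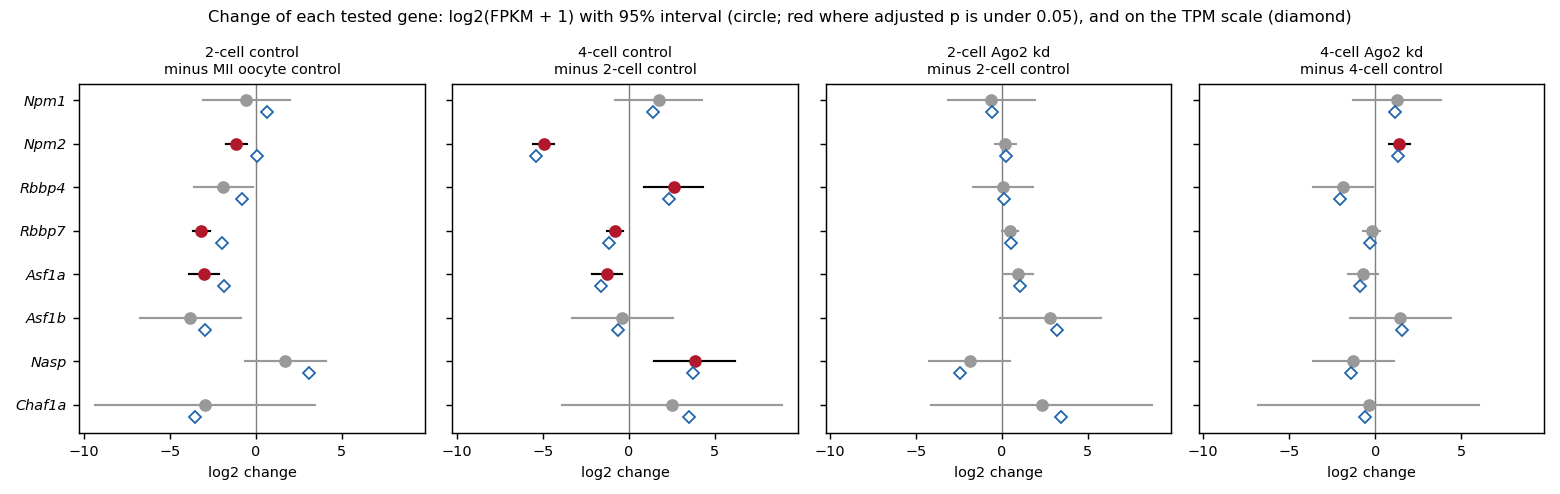
Change of each of the 8 genes tested in the 2 successive control comparisons and the 2 Ago2 kd comparisons, in log2(FPKM + 1) with its 95% interval from limma (circles, red where the adjusted p is under 0.05) and, just below, on the TPM scale (open diamonds). Npm2 between oocytes and 2-cell embryos moves from -1.14 to 0.05 with the scale, while its fall to the 4-cell stage and its rise after Ago2 kd at that stage do not change direction.

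Ordered by mean FPKM over the 5 groups, most neighbours did not pass a test of their difference. For Npm2 the order was MII oocyte, 2-cell Ago2 kd, 2-cell control, 4-cell Ago2 kd and 4-cell control, and every pair of neighbours passed the test except the 2 groups of 2-cell embryos. The top of this order depended on the scale. On the TPM scale Npm2 stood at 2153 and 1940 in 2-cell Ago2 kd and at 1523 and 1837 in MII oocytes. Rbbp7 and Asf1a had the same order down to the 2-cell controls, followed by 4-cell control and 4-cell Ago2 kd, and neither the 2 groups of 2-cell embryos nor the 2 groups of 4-cell embryos passed. Rbbp4 was highest in 4-cell controls, then in MII oocytes, 4-cell Ago2 kd, 2-cell Ago2 kd and 2-cell controls, and Nasp was highest in 4-cell controls and lowest after Ago2 kd at the 2-cell stage. For Rbbp4, Nasp, Npm1, Asf1b and Chaf1a no neighbours in the order passed the test.

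Other genes of histone handling were read from a list of 27 rows, of which 22 were tested. From MII oocytes to 2-cell embryos 2 of the 22 fell and none rose, and from 2-cell to 4-cell embryos 2 rose and none fell, where 14.2% of all genes fell at the first step and 21.1% rose at the second. From MII oocytes to 4-cell embryos 2 rose and 1 fell, beside 22.0% and 26.3% of all genes. Median changes were -0.49, 0.80 and 0.15, against -0.06, 0.24 and 0.00 over all genes tested. Atrx, the remodeller that partners Daxx in H3.3 deposition, measured 353 and 132 FPKM in MII oocytes and 4.71 and 6.85 FPKM in control 2-cell embryos. It fell by 5.02 (SE 0.64, adjusted p = 0.00232), under all 17 alternatives. Anp32b, an acidic histone-binding protein, measured 493 and 610 FPKM in MII oocytes, 66.9 and 0 FPKM in control 2-cell embryos and 377 and 437 FPKM in control 4-cell embryos. It fell by 6.06 (adjusted p = 0.0437) and rose by 5.63 (adjusted p = 0.0356), changes that passed under only 2 and 3 of 17 alternatives, and 1 of the 2 control 2-cell libraries was at 0.

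Chaf1b, the CAF-1 subunit that partners Chaf1a and Rbbp4, passed the test after Ago2 kd. It measured 0.0793 and 0.0383 FPKM in MII oocytes, 0.290 and 0.0890 FPKM in control 2-cell embryos, 31.0 and 31.9 FPKM in control 4-cell embryos, and 0.830 and 0.622 FPKM after Ago2 kd at the 4-cell stage. The control 4-cell embryos stood above every other library, and Chaf1b entered the genes tested only through them. The rise and the knockdown difference both rest on that group and are not independent. Chaf1b rose by 4.77 (SE 0.29, adjusted p = 7.38e-05) between control 2-cell and 4-cell embryos and was lower by 4.23 (SE 0.29, adjusted p = 0.000444) after Ago2 kd at the 4-cell stage. Of the 17 alternatives 16 gave the same call, and the model restricted to the 2 groups did not (adjusted p = 0.188). No other gene of the 22 passed at the 4-cell stage, where 1.23% of all genes tested rose and 2.77% fell. None of the 22 passed at the 2-cell stage, where 0.550% of all genes tested did. None was at an unadjusted p under 0.05 at the 2-cell stage, beside 5.96% of all genes.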

How the data were processed

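RNA-seq libraries of MII oocytes, 2-cell and 4-cell embryos were grouped by their labels. Per the submitters' processing notes, base calling used CASAVA 1.4, and reads were aligned to mm10 with HISAT2 2.1.0 and quantified with StringTie. The authors deposited FPKM, 1 value per gene name and library, and how transcripts were reduced to 1 row is not given in the sources used here. Depth is unknown, so no counting interval is given, and precision rests on 2 libraries per group. An exact permutation test of 2 against 2 libraries cannot go below p = 0.333, so only the fit over all genes was used.

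log2(FPKM + 1) was fitted with limma 3.58.1 in R 4.3.3 (1 mean per group, 5 residual degrees of freedom, variances moderated with a trend on the mean), with two-sided tests and Benjamini-Hochberg adjustment over the 8726 genes that reached 1 FPKM in 2 or more libraries. The fit was tested on simulated data. The genes and lists described here were chosen with earlier results of these data known. Of the other chaperone genes, those named passed the test after Ago2 kd or were the 3 largest changes that passed in a control step, and for each tested gene 1 gene with the highest correlation is named. Mis18a was named outside this rule, after its values were seen. Positions, overlaps and copies (blastn in BLAST 2.17.0, at least 90% identity over 200 bases) came from GENCODE M21 on GRCm38, and promoters from RefSeq on GRCm38.p6. Alternatives were a pseudocount of 0.1, no filter, TPM, median and quantile scaling, the replicate number as a term, only the groups compared, and leaving out each of 10 libraries.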

Additional observations from a re-analysis of the deposited data

Results flagged for a closer look

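Chaf1b was the only gene described here whose Ago2 kd effect differed between the stages by a test of the difference itself. The effect at the 4-cell stage minus that at the 2-cell stage was -4.28 on the log2(FPKM + 1) scale (SE 0.40, limma adjusted p = 0.00360). Over all genes tested 2.28% passed that test. At the 2-cell stage Chaf1b was 0.201 and 0.244 FPKM after Ago2 kd against 0.290 and 0.0890 FPKM in controls, and at the 4-cell stage 0.830 and 0.622 FPKM against 31.0 and 31.9 FPKM. The 4-cell control libraries alone stood above 1 FPKM, so Chaf1b passed the filter only through the group that this difference rests on. Groups of 2 libraries are too small to search for a library far from the others.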

How the results depend on the processing

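Of the 3, 5, 5, 0, 1 and 0 genes that passed in the 2-cell minus oocyte, 4-cell minus 2-cell, 4-cell minus oocyte, 2-cell Ago2 kd, 4-cell Ago2 kd and stage-difference comparisons, leaving out single libraries gave 2 to 4, 1 to 5, 4 to 5, 0 to 0, 0 to 1 and 0 to 1. In the 4-cell minus 2-cell comparison only 1 passed without 2-cell control replicate 1, 4-cell control replicate 1 or 4-cell control replicate 2, and 3 without MII oocyte replicate 1 or 2. That count was 1 with no filter and 3 with only the groups compared, and in the 4-cell Ago2 kd comparison it was 0 with no filter, with only the groups compared and with the replicate block. Of the other chaperone genes, 1 passed instead of 2 in the 2-cell minus oocyte comparison with a pseudocount of 0.1, with no filter and on the TPM scale, and 1 instead of 2 in the 4-cell minus 2-cell comparison with no filter (3 with a pseudocount of 0.1 and on the TPM scale). Rbbp4 in the 2-cell minus oocyte comparison (adjusted p = 0.0430) and Npm1 in the 4-cell minus 2-cell comparison (0.0376) passed with only the groups compared, and Rbbp4 also without 4-cell Ago2 kd replicate 1 or 2. Differences between replicates 1 and 2 correlated by -0.0931 to 0.0924 across groups. Such values cannot show whether equal replicate numbers mark a shared collection, which the labels do not say. With the replicate block Npm2 after Ago2 kd at the 4-cell stage had an adjusted p of 0.0679 and the second fall of Asf1a one of 0.0505.

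Some signs turned, none of them past the threshold. In the 2-cell minus oocyte comparison Npm1 was 0.63 on the TPM scale, 0.15 with median scaling and 0.42 with quantile normalization, and Npm2 was 0.0471 on the TPM scale and 0.0849 with quantile normalization. In the 4-cell minus oocyte comparison Chaf1a was 0.0150 on the TPM scale. After Ago2 kd Rbbp7 was 0.0199 at the 4-cell stage with median scaling, and Npm1 with its copies was 0.000215 at the 2-cell stage. On the TPM scale Npm1 with its copies was 0.0601 at the 2-cell stage, -0.0612 at the 4-cell stage and -0.12 for the difference between stages. With single libraries left out, Npm1 ran from -2.02 to 0.93 in the 2-cell minus oocyte comparison and from -0.29 to 2.66 in the 4-cell minus oocyte comparison, where Chaf1a ran from -3.36 to 2.51 (2.09 without 4-cell control replicate 1). Asf1b ran from -2.03 to 1.28 in the 4-cell minus 2-cell comparison (0.47 without 4-cell control replicate 1). At the 2-cell stage after Ago2 kd Npm1 ran from -1.84 to 0.58 and Rbbp4 from -0.30 to 0.36 (-0.15 without 2-cell Ago2 kd replicate 1). At the 4-cell stage Nasp ran from -2.55 to 0.0266 and Chaf1a from -2.90 to 2.13 (1.74 without 4-cell Ago2 kd replicate 1). In the difference between stages Asf1b ran from -3.0 to 0.32 and Nasp from -0.67 to 1.91 (-0.52 without 2-cell control replicate 2). The cause of these changes was not tested. FPKM without read counts, and 2 libraries per group, limit what can be seen.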

Other observations

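For each tested gene, the row outside the 10 genes with the highest Pearson's r of log2(FPKM + 1) over the 10 libraries is given as a description; the libraries fall into stages, so any genes with a similar course by stage correlate. For Npm2 it was Oosp1 (r = 0.994), an oocyte-secreted protein, for Asf1a Zcchc3 (r = 0.987), for Nasp Fsbp (r = 0.981), for Rbbp4 Brk1 (r = 0.980), for Npm1 the processed pseudogene Gm10257 (r = 0.937), for Asf1b Gorasp2 (r = 0.911) and for Chaf1a Gata4 (r = 0.891). For Rbbp7 it was its own copy Gm6382 (r = 0.997). Among the 10 genes the closest pair was Asf1a and Rbbp7 (r = 0.952), and Npm2 and Nasp ran in opposite directions (r = -0.922).

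Mis18a, which acts in loading the centromeric histone CENP-A, was at 0 in both MII oocyte libraries and at 108 and 150 FPKM in control 4-cell embryos. Its adjusted p of 0.0467 for that comparison was past the threshold under only 5 of 17 alternatives, and it was named after its values were seen.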
